A study of Rattus norvegicus with 6 samples.

Results

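The regions described here are the typical-size tiled stretches of the rat autosomes that were covered by long probes. Array probes that lay no more than 1000 bp from the next one on a chromosome of the rat build rn4 were joined into 16123 tiled regions, of which 14683 lay on chromosomes 1 to 20 and held 6 to 20 probes. A mean probe length above 52 nt was met by 2494 of them, or 17.0%, and the other 12189 served as the comparison. The 2494 long-probe regions held 22835 of the 172669 probes on the array, or 13.2%. Array designs of this kind commonly give longer probes to AT-rich sequence, so probe length stands in for base composition here, and the composition itself was not analysed. The choice used positions only, and no measured ratio.

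The study asked how inhaled fine particles in pregnancy relate to DNA methylation in the heart of the offspring. DNA from cardiac muscle of Sprague-Dawley (SD) rats at day 1 was enriched for methylated fragments by immunoprecipitation (MeDIP), and each array held the enriched DNA in Cy5 and the input DNA of the same sample in Cy3. The dams of the 3 control samples had received saline into the trachea, and those of the 3 PM2.5 samples a suspension of fine airborne particles by the same route, 30 µL at a time. Neither the dose nor the sex and litters of the pups were stated in the sources used here. The samples of a group are called biological replicates, so a p-value reflects the spread between them, which may in part be technical. Cardiac muscle holds several cell types, and a ratio is an average over them. The tissue label was not checked against markers, since the arrays measure no transcripts and their files pair no probe with a gene.

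In MeDIP, an antibody against 5-methylcytosine pulls down single-stranded DNA fragments in proportion to the methylated cytosines they carry, which in mammalian tissue lie mostly at CpG sites. AT-rich DNA holds few CpG sites and is therefore captured weakly even where each of its sites is methylated, whereas CpG islands are rich in sites that are mostly unmethylated. A low ratio of MeDIP over input can thus stand for few CpG sites, for unmethylated sites, or for both.

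The ratio was the log2 of Cy5 over Cy3 processed signal, centred on the median of each array. Probes were kept if the scanner software marked their input, on all 6 arrays, as well above background, which means clearly brighter than the surroundings of the spot. It was used in a region mean where its spot was also free of marks for uneven or outlying pixels on all 6 arrays. On PM2.5 replicate 1, which was scanned alone on a day of its own, 35.8% of spots carried such marks, against 0.341% to 2.21% on the other 5 arrays. Within long-probe regions the marked share of kept probes on that array was 26.5%, against 49.1% in the other typical-size regions. Controls 2 and 3 shared a scan time and were scanned on the same day as PM2.5 replicate 2, while control 1 and PM2.5 replicate 3 shared another day.

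Long-probe regions differed from the rest in probes but little in size. Their median span was 1664.5 bp with 9 probes, against 1668 bp with 10 probes in the other typical-size regions. The median of their mean probe length was 54.6 nt, against 47.7 nt. Probes at the upper limit of 60 nt made up 42.0% of their probes and 6.68% of the others, whereas probes at the lower limit of 45 nt made up 12.5% and 59.2%. The regions were not uniform inside: 1620 held both a 45 nt and a 60 nt probe, and 6 held 60 nt probes only.

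Immunoprecipitated DNA was well above background on all 6 arrays at 8273 of the 22835 probes, or 36.2%, and at 73.2% of probes in the other typical-size regions. It was not well above background on any array at 10461 probes (45.8%, against 13.6%), and was so on 1 to 5 arrays at the remaining 4101. By array, the share of long-probe region probes with Cy5 well above background was 49.8%, 44.3% and 46.6% on control replicates 1, 2 and 3, and 41.5%, 46.5% and 46.5% on PM2.5 replicates 1, 2 and 3. The groups overlapped, and the lowest share was on PM2.5 replicate 1. The input was also dimmer here: Cy3 was well above background at 65.9%, 75.4% and 76.5% of probes on the control arrays and at 64.8%, 68.1% and 71.2% on the PM2.5 arrays.

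Detection followed the length of the single probe rather than the region it lay in. Among 60 nt probes, Cy5 was well above background on all arrays at 7.83% in long-probe regions and at 11.0% in the other regions. Among 45 nt probes the shares were 90.4% and 90.8%. The input filter had the same slope, keeping 28.7% of 60 nt and 94.6% of 45 nt probes in long-probe regions. In all, 13425 probes (58.8%, against 83.6% in the other regions) were kept, and 9616 of them were unmarked on all 6 arrays. At least 2 such probes were required, which left 2312 long-probe regions with a measured mean and a median of 4 probes each. Of the 182 that were not tested, 33 had 0 usable probes and 149 had 1.

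MeDIP enrichment was low in long-probe regions on every array. The mean ratio over the 2312 regions was -1.13, -1.28 and -1.34 on control replicates 1, 2 and 3, and -0.61, -0.91 and -0.95 on PM2.5 replicates 1, 2 and 3 (log2, centred). All 3 PM2.5 arrays lay above all 3 control arrays, with replicate 1 highest. The group mean was -1.25 ± 0.107 for controls and -0.82 ± 0.187 for exposed offspring (SD over arrays, n = 3 each), and the PM2.5 mean was -0.93 without replicate 1. In the 11399 other typical-size regions tested, the means were -0.44 ± 0.0362 and -0.23 ± 0.173 (SD, n = 3 each). The gap between both kinds of region, which no centring of an array can move, was -0.73, -0.82 and -0.88 on the control arrays and -0.58, -0.60 and -0.60 on the PM2.5 arrays. It was smaller on every PM2.5 array than on any control array.

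**Figure D1:**
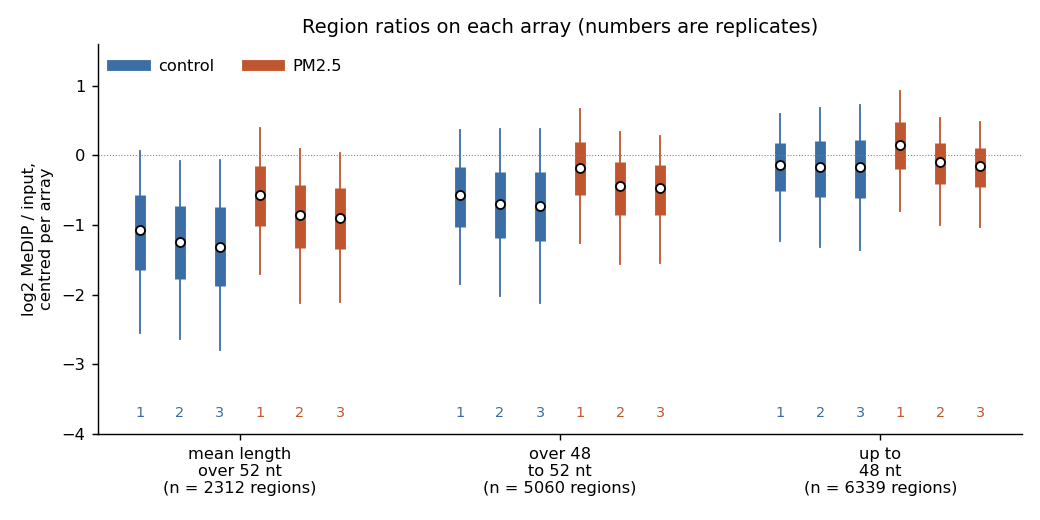
Region ratios of MeDIP over input on each of the 6 arrays (y axis, log2, centred per array), for long-probe regions and for the other typical-size regions split at a mean probe length of 48 nt. Points are medians, thick bars the middle 50% of regions and thin lines the 5th to 95th percentile; the medians of long-probe regions run from -1.07 to -1.32 on control arrays and from -0.56 to -0.89 on PM2.5 arrays.

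A larger part of the regions lay far below the array median in controls. Regions under -1 made up 53.1%, 62.5% and 64.9% of long-probe regions on the control arrays and 26.1%, 42.0% and 43.1% on the PM2.5 arrays. Regions above 0 were few in both groups, at 4.77% ± 1.07 of the regions for controls and 9.98% ± 6.52 for exposed offspring (n = 3 each, SD), and the latter was 6.23% without replicate 1. The spread of ratios over the regions was narrower on the PM2.5 arrays, except after quantile normalisation and in the authors' deposited values. Its standard deviation was 0.800, 0.783 and 0.827 on the control arrays and 0.661, 0.679 and 0.675 on the PM2.5 arrays, with no overlap. The difference in standard deviation was -0.13 as designed, 0.0037 after quantile normalisation and 0.0046 in the authors' deposited table of log2 values.

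Under the processing described above, many long-probe regions were called higher and none was called lower. With limma's moderated test over all 14786 tiled regions tested, 556 of the 2312 long-probe regions were higher in PM2.5 (Benjamini-Hochberg adjusted p under 0.05), which is 24%, against 9.79% of all regions tested. None was lower, against 0.0473% of all regions tested; at an unadjusted p under 0.05, 1383 (59.8%, against 32.5% of all) were higher and 1 (0.0433%, against 0.622%) was lower. In 1376 regions (59.5%, against 37.9% of all regions tested) every PM2.5 array lay above every control array, and in 5 (0.216%, against 1.9%) every PM2.5 array lay below. Long-probe regions made up 15.6% of the regions tested and 38.4% of all rises. No test of this difference in share was run.

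The shift was broad and not carried by a few regions. The mean was higher in PM2.5 in 2228 regions (96.4%), against 83.6% of all regions tested and 80.6% of the other typical-size regions. The median change was 0.43, with quartiles of 0.26 and 0.59 and a range from -0.35 to 1.47 on the log2 scale. The median over all regions tested was 0.24, so relative to it the long-probe regions lay 0.19 higher, and relative to the other typical-size regions 0.23 higher. The 556 rises had a median change of 0.70 and a smallest one of 0.46, and their median level went from -1.88 to -1.17. Of these, 472 rested on at least 3 probes and 84 on 2.

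The calls depended on single control arrays and on what arrays shared. Without control replicate 2 the same test called 1 long-probe region higher (0.0433%, against 0.00676% of all regions tested), and without control replicate 3 it called 0 (0 of all), where 888 regions were higher at an unadjusted p under 0.05. The unadjusted share over all regions tested was not computed there. Without control replicate 1 the test called 460 (19.9%, against 7.61%). Leaving out PM2.5 replicate 1, 2 or 3 gave 621 (26.9%, against 11.4%), 416 (18%, against 7.12%) and 553 (23.9%, against 10.3%). When the presumed slide of controls 2 and 3 entered as a random block, 2 regions were called higher (0.0865%, against 0.0609%). With scanning day as a block 862 were (37.3%, against 17.2%). PM2.5 replicate 1 was alone on its day, so the group difference of the day-block fit rests on the other arrays. Between control 1 and PM2.5 replicate 3, scanned on the same day, the median change was 0.17, with 76.2% of long-probe regions higher, and it was 0.04 in the other typical-size regions. Between controls 2 and 3 and PM2.5 replicate 2, scanned on another day, the medians were 0.39 and 0.14. The long-probe median was thus above the other median within both days.

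The size of the shift depended on centring and scaling. With every array centred on the probes that were unmarked on all 6 arrays, the median of all regions tested went from 0.24 to 0.05, the long-probe median went to 0.24, and 141 long-probe regions were called higher (6.1%, against 2.16% of all regions tested) and 1 lower (0.0433%, against 0.216%). After normexp background correction, scale or quantile normalisation, 0 were called, with median changes of 0.21, 0.24 and 0.19. In the authors' deposited table of log2 values 0 were called and the median change was 0.05. The median of long-probe regions exceeded that of the other typical-size regions under all 28 alternatives computed, by 0.02 to 0.26. Some of these could not alter the excess: common centring and a block for replicate number left it at 0.23 by construction.

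**Figure D2:**
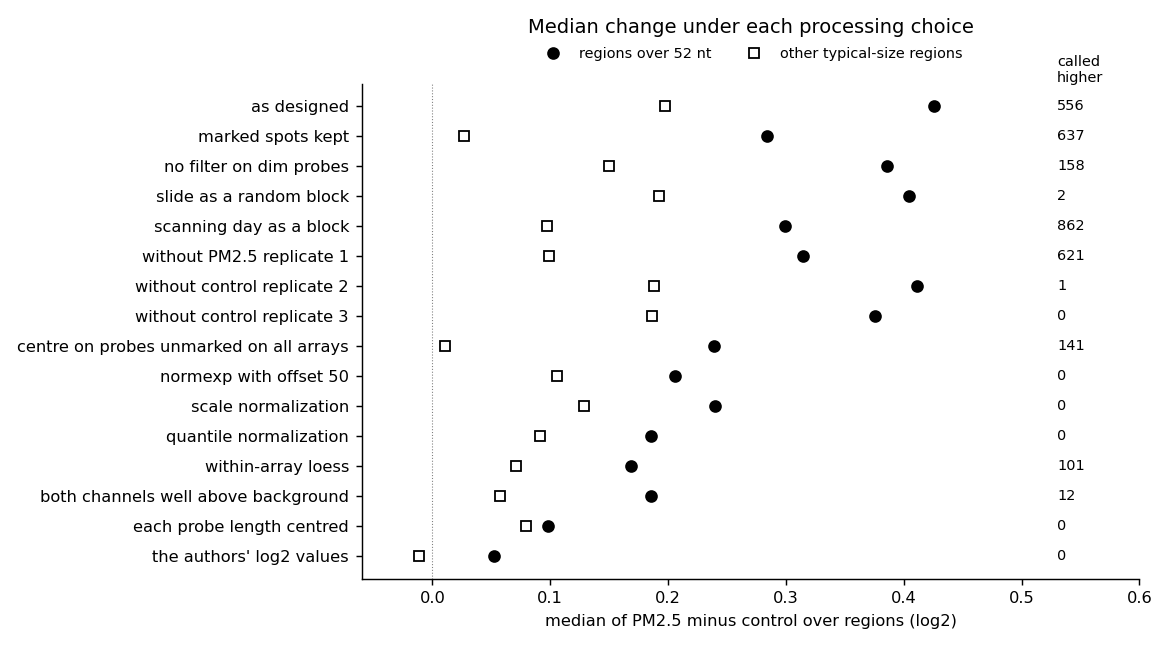
Median PM2.5 minus control change (x axis, log2) of long-probe regions (filled circles) and other typical-size regions (open squares) under 16 processing choices, with the number of long-probe regions called higher at the right. The filled circle lies to the right of the square in each row, from 0.43 against 0.20 as designed to 0.05 in the authors' values, while the number called runs from 0 to 862 in the rows drawn; the replicate block and array weights, which are not drawn, called 945 and 1671.

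Weighted to the same probe lengths, long-probe regions and the other regions had nearly the same mean change. Over the probes used, the mean change was 0.43 in long-probe regions and 0.22 in the other typical-size regions. When the other regions' probes were weighted to the probe lengths found in long-probe regions, their mean change was 0.44 and the gap closed from 0.22 to -0.00498. The gap in control level closed in the same way, from -0.82 to -0.08. On single arrays the matched gap in level was -0.09, -0.07 and -0.08 in controls against -0.06, -0.08 and -0.12 in PM2.5. These groups overlapped, unlike those of the gap before matching.

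Level fell and change grew with probe length. At 60 nt, the mean ratio in long-probe regions went from -1.91 ± 0.126 to -1.35 ± 0.185, and in the other regions from -1.98 ± 0.144 to -1.36 ± 0.182 (SD, n = 3 each). The 60 nt values of long-probe regions were -1.79, -1.92 and -2.04 on the control arrays and -1.14, -1.45 and -1.46 on the PM2.5 arrays, with no overlap. At 45 nt they were -0.31, -0.34 and -0.34 on the control arrays and 0.05, -0.26 and -0.35 on the PM2.5 arrays. Here the groups overlapped, and the highest value was that of PM2.5 replicate 1.

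The shortest probes were where both kinds of region differed most. At 45 nt the control level was -0.33 in long-probe regions and 0.14 in the others, and the change was 0.14 and 0.02. Over the 16 probe lengths the difference in change ran from -0.07 at 57 nt to 0.12 at 45 nt. Inside single long-probe regions, where neighbouring probes share the locus, the slope of ratio on length was -0.0795, -0.0867 and -0.0928 per nt on the control arrays and -0.0644, -0.0643 and -0.0583 on the PM2.5 arrays. It was steeper on every control array than on any PM2.5 array. With each probe length centred to its own median on every array, the median change was 0.10, the gap to the other regions 0.02, and 0 long-probe regions were called, with 364 higher and 93 lower at an unadjusted limma p under 0.05. The unadjusted shares over all regions tested were not computed for that setting.

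**Figure D3:**
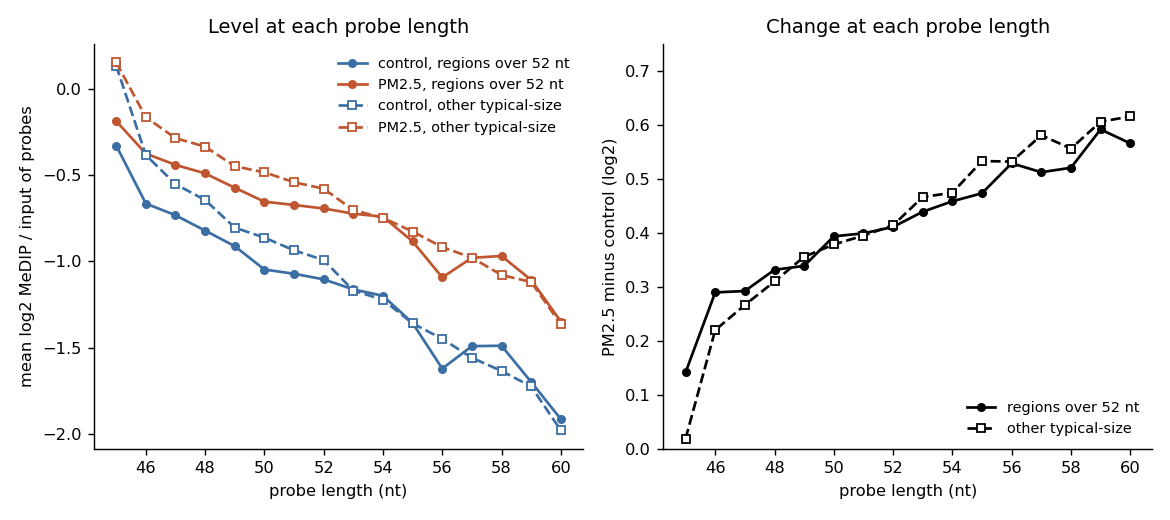
Mean ratio of MeDIP over input (left, log2) and its PM2.5 minus control change (right, log2) at each probe length from 45 to 60 nt, for probes of long-probe regions (solid) and of the other typical-size regions (dashed). From 46 nt upwards the changes of both kinds of region lie within 0.07 of each other, with 0.57 and 0.62 at 60 nt; at 45 nt the regions lie apart, with control levels of -0.33 and 0.14 and changes of 0.14 and 0.02.

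Single probes gave the same picture by length. Of 13413 long-probe region probes tested with limma, 368 were higher (2.74%, against 1.3% of all probes tested) and 0 were lower (0.0059% of all), while at an unadjusted p under 0.05 there were 3795 higher (28.3%, against 14.6% of all) and 197 lower (1.47%, against 3.22%). Among 60 nt probes 5.3% were higher in long-probe regions and 6.54% in the other typical-size regions. Among 45 nt probes the shares were 0.112% and 0.0779%. In each kind of region, the share called at 60 nt was far above that at 45 nt.

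The regions with the lowest ratios changed most. Long-probe regions were split into 5 nearly equal classes by their mean over all 6 arrays. The median of the lowest class was -2.28 in controls against -1.64 after exposure, and 244 of its 463 regions were called higher (52.7%, against 9.79% of all regions tested). Other regions of a similarly low ratio were not counted. The highest class had medians of -0.27 and -0.04, and 11 of 463 were called (2.38%). The median change went down step by step over the classes, at 0.63, 0.51, 0.44, 0.34 and 0.21. In the lowest class the medians by array were -2.30, -2.38 and -2.51 in controls against -1.49, -1.89 and -1.91 in PM2.5, with no overlap.

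The change was largest at probes whose immunoprecipitated signal was close to background. The 2360 used probes with Cy5 well above background on no array, 24.5% of those used, averaged -2.85 on the control arrays and -2.06 on the PM2.5 arrays. The 4360 used probes with Cy5 well above background on all 6 arrays went from -0.39 to -0.17, a change of 0.22. At probes with Cy5 well above background on no array that signal was weak. A difference in ratio there is given as measured and not as a fold of methylated DNA. Such probes were also longer, at a mean of 57.3 nt against 51.1 nt. Their part in the result was not tested apart from probe length.

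**Figure D4:**
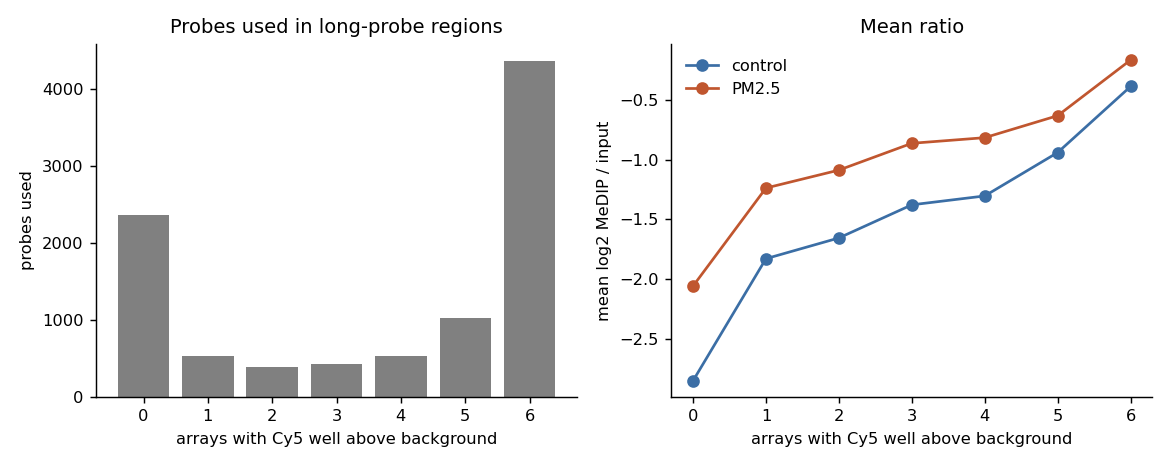
Number of probes used in long-probe regions (left) and their mean ratio of MeDIP over input (right, log2, blue control, orange PM2.5) by the number of arrays, 0 to 6, on which Cy5 was well above background. The distance between the lines is 0.79 at 0 arrays and 0.22 at 6 arrays.

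Detection itself was no more frequent after exposure. Cy5 was well above background at 63.8% ± 4.93 of used probes on the control arrays and at 61.0% ± 5.67 on the PM2.5 arrays (SD over 3 arrays each). It was so on more control than PM2.5 arrays at 1604 used probes, on more PM2.5 than control arrays at 868, and on equal numbers at 7144. It was so on all 3 PM2.5 arrays and no control array at 26 used probes, and on all 3 control arrays and no PM2.5 array at 47. Among the 556 rises, 496 held a used probe with Cy5 well above background on no control array, and 484 held one with it so on no PM2.5 array. Neither count was made over all long-probe regions or all regions tested, so they do not set rises apart from other regions. In 35 long-probe regions tested Cy5 was not well above background at any used probe on any array, and 18 of these were rises. Cy5 was well above background on all 6 arrays at every used probe in 178 of the long-probe regions tested, with a median change of 0.20. Of these 178, 10 were called higher. Over all long-probe regions the share called higher was 24%, and over all regions tested 9.79%. With Cy5 as well as Cy3 required on all 6 arrays, 1354 long-probe regions were tested, the median change was 0.19 and 12 were called higher (0.886%, against 0.187% of all regions so tested). With common centring added to that, a choice made after seeing the data, 0 were called, and the unadjusted limma p was under 0.05 for 312 upward and 36 downward differences. The unadjusted shares over all regions so tested were not computed.

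By channel, over all used probes, the groups were barely apart in the immunoprecipitated DNA and overlapped in the input. The median Cy5 signal of used probes in long-probe regions, relative to the median of all used probes of the array, was -0.67, -0.74 and -0.75 on the control arrays and -0.55, -0.66 and -0.54 on the PM2.5 arrays (log2). The relative Cy3 signal was -0.12, -0.07 and -0.06 on the control arrays and -0.11, -0.19 and -0.10 on the PM2.5 arrays. The Cy5 groups did not overlap, though their nearest arrays lay at -0.67 and -0.66, and the Cy3 groups did. The Cy5 signal of these probes was 4.76 ± 0.408 times its local background on the control arrays and 5.94 ± 1.00 times on the PM2.5 arrays (SD of array medians, n = 3 each). Feature Extraction had replaced a low Cy5 signal by a surrogate at 8.08% ± 0.721 of used probes on the control arrays and at 7.26% ± 0.685 on the PM2.5 arrays (SD over 3 arrays each).

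The 8 largest rises with at least 3 probes used and no overlap between the groups lay on chromosomes 3, 4, 5, 8, 9 and 20. They started from control means between -3.31 and -2.23, far below the array median, and ended between -2.04 and -0.85. The lack of overlap was a condition for this list and not a result. The 8 regions had 0 to 2 probes with Cy5 well above background on a control array. In 7 of the 8 the relative Cy3 signal was also lower in PM2.5, by up to 0.43 (log2), and its part in the ratio was not tested. The limma calls of named regions, 16 in all, depended on the processing: 0 of the 16 passed after normexp, scale or quantile normalisation, with each probe length centred, in the authors' values, or without control replicate 2 or 3. With the slide block 1 passed (adjusted p from 0.0349 to 0.0974), and with common centring 8 did. With both channels required 5 of the 16 could be tested, and 0 passed (limma adjusted p from 0.05815 to 0.06798).

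The largest of these was chr3:58928229-58929970, with 9 probes of a mean 52.6 nt, of which 4 were used. Its ratio was -1.98, -2.33 and -2.44 on the control arrays and -0.28, -1.15 and -1.13 on the PM2.5 arrays. PM2.5 replicate 1 stood above the other arrays. The difference was 1.40 (SE 0.226, limma adjusted p = 0.0235). Its 4 probes changed by 1.39, 1.10, 1.92 and 1.18, and Cy5 was well above background on a control array at 1 of them and on a PM2.5 array at 2.

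The region chr3:75040608-75042275, with 3 probes used, stood at -2.04, -2.46 and -2.67 in controls against -0.62, -1.52 and -1.12 in PM2.5, a difference of 1.30 (SE 0.226, limma adjusted p = 0.0235). The 1 probe there with Cy5 above background, on 2 arrays of each group, went from -2.00 to -0.89. This change of 1.11 was the smallest of its 3 probes. The region chr8:63189445-63191060 stood at -3.17, -3.10 and -3.66 in controls against -1.42, -2.46 and -2.22 in PM2.5, a difference of 1.27 (SE 0.247, limma adjusted p = 0.0262). None of its 3 used probes had Cy5 well above background on any array, so both of its levels rest on weak Cy5 signal.

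The region chr4:57188521-57190248 stood at -2.61, -2.73 and -2.87 in controls against -1.12, -1.88 and -1.56 in PM2.5, a difference of 1.22 (SE 0.187, limma adjusted p = 0.0231). Among its 4 used probes, only one of 47 nt had Cy5 well above background on any array, namely on 2 PM2.5 arrays. The region chr5:91513990-91515601 stood at -2.66, -2.97 and -3.02 in controls against -1.31, -2.00 and -1.84 in PM2.5, a difference of 1.17 (SE 0.188, limma adjusted p = 0.0235). In both regions no used probe had Cy5 well above background on a control array.

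Probes of 1 region did not always move together. In chr9:79633977-79635658, with 6 used probes and a mean length of 58.4 nt, the mean went from -2.99 ± 0.348 to -1.85 ± 0.457 (SD, n = 3 each), a difference of 1.14 (limma adjusted p = 0.0285). Its first 60 nt probe, with Cy5 well above background on 3 control and 2 PM2.5 arrays, went from 0.27 to 0.22. The other 5 probes changed by 0.81 to 1.83, and Cy5 was above background at 1 of them. The probe with the highest ratio was thus the only one of the region without an upward difference.

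The region chr4:70987015-70988715 had the tightest controls of the 8, at -3.12, -3.11 and -3.09, and stood at -1.66, -2.19 and -2.06 in PM2.5. Its difference was 1.13 (SE 0.156, limma adjusted p = 0.0194). The region chr20:45825000-45826595 had the widest PM2.5 values, at -0.41, -1.19 and -1.73, against -1.87, -2.47 and -2.35 in controls. Its highest control value thus came close to its lowest PM2.5 value, and its difference was 1.12 (SE 0.282, limma adjusted p = 0.0374).

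Among the 10 rises whose used probes all had Cy5 well above background on all 6 arrays, the 4 largest rested on 2 probes each. None of these 4 passed the limma test with both channels required or with common centring. The region chr1:161882385-161883884 stood at -1.54, -1.85 and -1.95 in controls against -0.84, -1.27 and -0.79 in PM2.5, a difference of 0.81 (SE 0.171, limma adjusted p = 0.0291). The region chr4:170807321-170809076 stood at -0.38, -0.89 and -0.96 in controls against 0.31, 0.07 and -0.28 in PM2.5, a difference of 0.78 (SE 0.194, limma adjusted p = 0.0366). In neither did the groups overlap, though the nearest arrays of the second lay close.

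The region chr4:6399008-6400707 stood at -1.21, -1.59 and -1.63 in controls against -0.75, -0.60 and -0.82 in PM2.5, a difference of 0.76 (SE 0.153, limma adjusted p = 0.0279). Both channels moved there: relative Cy5 went from 0.60 to 0.43 and relative Cy3 from 1.70 to 1.02, so the higher ratio stood beside a lower input signal. The region chr10:87039173-87040954 stood at -0.20, -0.80 and -0.73 in controls against 0.42, 0.19 and -0.08 in PM2.5, a difference of 0.75 (SE 0.188, limma adjusted p = 0.037). In it, relative Cy5 went from -0.04 to 0.29 and relative Cy3 from 0.16 to -0.02. Relative Cy3 was lower in PM2.5 in all 4 of these regions.

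**Figure D5:**
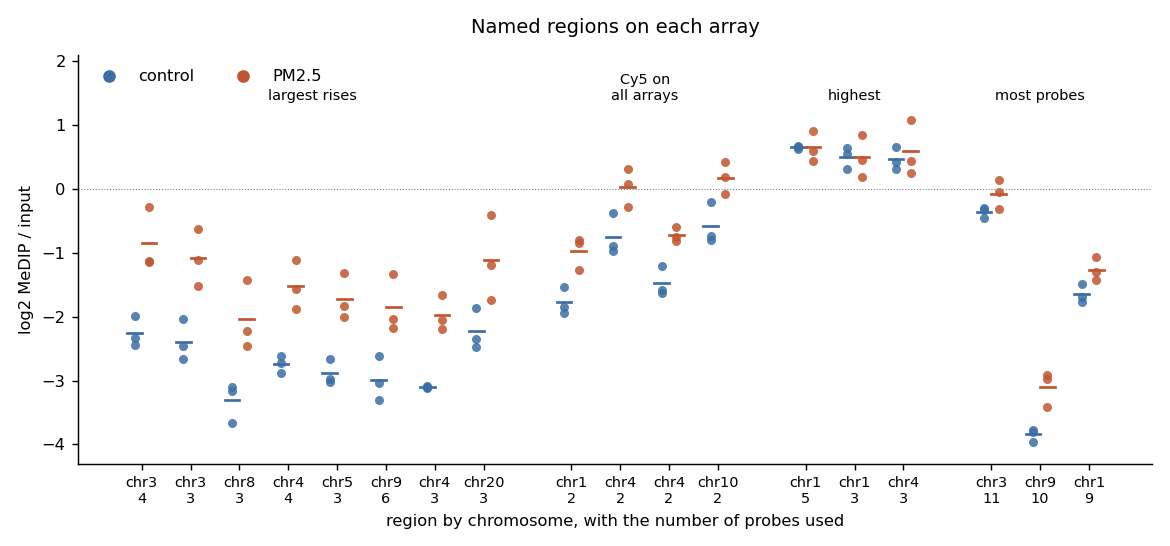
Ratio of MeDIP over input (y axis, log2) on each control (blue) and PM2.5 (orange) array in 18 long-probe regions, labelled by chromosome and number of probes used; horizontal bars are group means (n = 3 each). The 8 largest rises were listed only where the groups do not overlap. The groups do not overlap either in the 4 regions with Cy5 well above background throughout. Of regions with at least 3 probes used, the 3 with the highest control level, at 0.46 to 0.65, have overlapping groups.

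Long-probe regions with high ratios changed little. In 53 regions the ratio was above 0 on all 6 arrays, and their median change was 0.07. Of these, 37 had the higher mean in PM2.5 and 0 were called higher. Over all regions tested, 83.6% had the higher mean in PM2.5 and 9.79% were called higher. Other regions above 0 on all 6 arrays were not counted. Among regions with at least 3 probes used, the highest control mean was that of chr1:163987638-163989335. It stood at 0.67, 0.63 and 0.66 in controls against 0.91, 0.60 and 0.44 in PM2.5. Each of its 5 used probes had Cy5 well above background in both groups. The next were chr1:236071991-236073741, at 0.50 ± 0.166 and 0.49 ± 0.339, and chr4:48675777-48677539, at 0.46 ± 0.179 and 0.59 ± 0.437 (SD, n = 3 each). PM2.5 values lay on both sides of the control values in these 3 regions, and none passed the limma test (adjusted p = 0.997, 0.983 and 0.69).

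At the other end, the 3 lowest regions with at least 3 probes used had inputs brighter than the array median. The lowest region, chr15:5550212-5551768, stood at -4.96, -5.30 and -5.38 in controls against -4.86, -5.28 and -5.08 in PM2.5, with an input 2.46 to 2.70 above the array median (log2). Its groups overlapped (difference 0.14, limma adjusted p = 0.566). The region chr14:21444677-21446059 went from -4.14 ± 0.112 to -3.16 ± 0.461, and chr14:43691-45356 from -4.06 ± 0.0743 to -3.29 ± 0.456 (SD, n = 3 each; limma adjusted p = 0.0291 and 0.0417). None of the 3 probes used in the former had Cy5 well above background on any array, so both of its levels rest on weak Cy5 signal. Of the 7 probes used in the latter, 1 had Cy5 well above background on a control array and 0 on a PM2.5 array. In the authors' deposited table the change of this region was -0.01.

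Downward differences were few and none passed the test as designed. The 3 with the smallest unadjusted p among those with at least 3 probes were chr3:73217870-73219526, chr3:69585182-69586856 and chr2:89323287-89324294, with differences of -0.21, -0.18 and -0.15 (limma adjusted p = 0.359, 0.392 and 0.419). With scanning day as a block 5 long-probe regions were called lower (0.216%, against 0.839% of all regions tested), among them the first of these at -0.35 (limma adjusted p = 0.0491), which also passed with array weights (-0.25, adjusted p = 0.0251). The second passed after loess (-0.82, limma adjusted p = 0.0475). The first stood at -0.44, -0.58 and -0.40 in controls against -0.40, -0.77 and -0.89 in PM2.5, with overlap. The last lay above the array median, at 0.25, 0.25 and 0.32 in controls against 0.05, 0.14 and 0.17 in PM2.5. Its groups did not overlap, and Cy5 was well above background at 4 of its used probes on a control array.

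The 3 regions named for the longest probes, made of 60 nt probes throughout, had 2 to 4 probes used. The region chr1:49183602-49185120 stood at -3.54, -3.51 and -3.89 in controls against -2.27, -3.12 and -3.12 in PM2.5, a difference of 0.81 (limma adjusted p = 0.0454) with Cy5 well above background nowhere. Its change in the authors' deposited table was -0.07. The other 2, chr3:69804146-69805793 and chr4:170155237-170156706, differed by 0.51 and 0.43 and did not pass (limma adjusted p = 0.066 and 0.0837), though the former did with scanning day as a block (adjusted p = 0.0479). All 3 had groups that did not overlap.

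The regions measured on the most probes give the most averaged values. The longest of them, chr3:113580236-113583789, had 19 probes over 3554 bp, of which 11 were used. It stood at -0.32, -0.30 and -0.46 in controls against 0.14, -0.32 and -0.05 in PM2.5, with overlap (difference 0.29, limma adjusted p = 0.206). The region chr9:971222-972942, on 10 used probes, stood at -3.95, -3.77 and -3.81 in controls against -2.91, -3.42 and -2.98 in PM2.5, a difference of 0.74 (SE 0.160, limma adjusted p = 0.0298). There the relative Cy5 went from -1.62 to -1.56 and the relative Cy3 from 1.85 to 1.42. The higher ratio of this region thus stood beside a lower input signal. The region chr1:63152978-63154649, on 9 used probes, went from -1.65 ± 0.148 to -1.26 ± 0.180 (SD, n = 3 each; limma adjusted p = 0.0994), without overlap.

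The limit of 52 nt marked no step. Regions with a mean length over 51 and up to 52 nt, just outside it, had a median change of 0.37 with 129 of 724 called higher (17.8%, against 9.79% of all regions tested). Those over 52 and up to 53 nt, just inside, had 0.38 with 115 of 531 (21.7%). The longest class, over 58 nt, had 0.49 with 38 of 107 (35.5%), and the shortest, up to 46 nt, 0.05 with 20 of 2046 (0.978%). Change thus grew with mean probe length across the whole range. The regions nearest inside the limit, chr8:11586922-11588885 and chr2:30337071-30339338, differed by 0.23 and 0.57, and the regions nearest outside, chr1:64625533-64627142 and chr1:119277277-119279062, by 0.33 and 0.09; none of the 4 passed the test.

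Long-probe regions were gathered in parts of the genome. They made up 27.7% of typical-size regions on chromosome 3, 24.3% on chromosome 8 and 23.8% on chromosome 4, but 3.18% on chromosome 12, 5.54% on chromosome 19 and 7.48% on chromosome 10. The next tiled region after a long-probe region was itself one in 55.1% of cases, against 16.1% after any autosomal region. Runs of at least 5 in a row numbered 79 and held 1112 regions (44.6%), while 816 stood alone. The median distance to the nearest region was nearly that of the other regions, at 29863 bp against 30300 bp.

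The longest run held 99 long-probe regions in a row at chr3:69169608-71944709, over 2.78 Mb. The mean ratio of its 84 tested regions was -1.10, -1.26 and -1.34 on the control arrays and -0.60, -0.86 and -0.94 on the PM2.5 arrays, and 23 were called higher, or 27.4%, against 24% of all long-probe regions and 9.79% of all regions tested. These levels were close to those of all long-probe regions. The next run, chr3:72730368-74446689 with 63 regions, went from -1.30 ± 0.0821 to -0.96 ± 0.214 with 12 of 59 called (20.3%), and chr8:15731703-18919023 with 46 regions from -1.36 ± 0.0776 to -0.86 ± 0.224 with 13 of 36 called (36.1%; SD, n = 3 each). In a run of 35 regions at chr20:427823-1407447 the means were -1.58 ± 0.136 and -1.09 ± 0.240 (SD, n = 3 each), with 7 of 35 called (20%). These shares lie on both sides of the 24% of all long-probe regions. In each of these 4 runs every PM2.5 array lay above every control array.

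The change was spread over the autosomes. The median change by chromosome ran from 0.35 on chromosome 16 to 0.52 on chromosomes 12 and 20, and the share of tested regions called higher from 18.8% on chromosome 7 to 33.3% on chromosome 16. Chromosome 12 had the lowest control median, -1.74 over 13 regions, and chromosome 19 the highest, -0.90 over 21. Neighbouring regions of one chromosome share sequence context and are not independent replicates.

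Within regions the change had no preferred place. Over 5 equal stretches from one end of a long-probe region to the other, the mean change of probes was 0.40, 0.42, 0.46, 0.42 and 0.47, and the control level -1.26, -1.24, -1.29, -1.20 and -1.37. These stretches differed in mean probe length by less than 2 nt. Adjacent used probes inside a region had ratios that correlated weakly, with r of 0.137 to 0.184 over the 6 arrays, which share the probes.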

How the data were processed

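MeDIP and input DNA of 6 samples of cardiac muscle was measured on 2-colour arrays. Spot intensities were deposited as Feature Extraction 11.0.1.1 output; per the file headers the processed intensity had its background subtracted, a spatial trend removed and the dyes scaled linearly, with low signals replaced by surrogates, and coordinates are on rn4. Dyes are per the labels. The authors also deposited log2 values, used as an alternative; their scale and smoothing are not stated, and their direction follows MeDIP over input.

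Processed Cy5 over Cy3 was taken to log2 and centred on each array's median of kept, unmarked probes, in R 4.3.3 (tables handled by data.table, which was version 1.17.8). All 14786 tiled regions with at least 2 probes used were tested as PM2.5 minus control with lmFit and eBayes of limma 3.58.1 (two-sided, Benjamini-Hochberg adjusted p under 0.05), and all kept probes likewise, with marked spots missing. The test was also run on simulated data with independent noise, which cannot show how shifts shared by arrays affect the calls. Values over sets of regions are descriptions without a p. Probe sequences, genes and an rn4 genome were not used here.

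The regions and lists were chosen with earlier results of these data known. Regions named were up to 8 largest rises past the threshold without overlap and with at least 3 probes, and up to 4 largest with Cy5 well above background throughout. Among regions with at least 3 probes used, they were also the 3 falls with the smallest unadjusted limma p, and the 3 highest and 3 lowest control means. The others were the 3 longest mean probe lengths, the 3 with most probes used, and 2 on each side of the 52 nt limit.

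Alternatives covered normexp correction (offset 50, on median signals), scale, quantile and loess (span 0.3) normalisation, centring, filters, blocks, variance models, region rules and each array left out. The slide block used a correlation of 0.574 from a moment estimate, because duplicateCorrelation gave none; a shared slide was inferred from an identical scan time. The number of arrays limits the precision. Figures were drawn with matplotlib 3.10.9.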

Additional observations from a re-analysis of the deposited data

How the results depend on the processing

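Of 28 alternatives, 2 were chosen after seeing the data; the causes of the shifts below were not tested. As designed, 556 long-probe regions were called higher and 0 lower, the median change was 0.43, its excess over the other typical-size regions 0.23, the difference in standard deviation over regions -0.13, and 368 probes were called. No region and no probe was called after normexp (median 0.21, excess 0.10, standard deviation difference -0.0547), scale (0.24, 0.11, -0.0212) or quantile normalisation (0.19, 0.0937, 0.00366), with each probe length centred (0.10, 0.0186, -0.111) or in the authors' values (0.0524, 0.0638, 0.00461); at an unadjusted limma p under 0.05, 790, 305, 327, 364 and 185 regions were higher. For these unadjusted counts no share over all regions tested was computed. Loess called 101 higher (4.37%, against 2.26% of all regions tested) and 9 lower (0.389%, against 0.345%), with 0.17 and 0.10, and 226 probes. Centring on probes unmarked on all arrays called 141 higher (6.1%, against 2.16%), 1 lower (0.0433%, against 0.216%) and 188 probes, with a median of 0.24. Without PM2.5 replicate 1 it called 131 higher (5.67%, against 1.84%), with a median of 0.20. For the probe counts under the alternatives no share over all probes tested was computed. Requiring both channels called 12 regions and 0 probes (0.19, 0.13, -0.0997), and 0 regions and 0 probes with common centring (0.12, 0.13, -0.0997). Without the filter on dim probes 158 regions (6.34%, against 2.11%) and 1 probe were called (standard deviation difference -0.0697), and with marked spots kept 637 regions were higher (25.9%, against 7.25%) and 1 lower (0.0406%, against 0.25%). Region medians called 289 (12.5%, against 5.01%; standard deviation difference -0.168), and with at least 5 probes used that difference was -0.111. Scanning day as a block called 862 higher (37.3%, against 17.2%), 5 lower (0.216%, against 0.839%) and 1580 probes, slide as a random block 2 regions and 4 probes, trend and robust estimation 71 regions (3.07%, against 1.43%) and 0 probes, and array weights 1671 higher (72.3%, against 43.1%), 22 lower (0.952%, against 5%) and 2511 probes. In the day-block fit PM2.5 replicate 1 stood alone on its day and did not enter the group difference. With the replicate number as a block, 945 regions (40.9%, against 19%) and 1338 probes were called. Same-numbered samples deviated together at correlations of only -0.01, 0.11 and -0.15. A correlation over regions leaves out shifts of a whole array, so it cannot settle whether the numbers pair the samples. Leaving out single arrays gave 0 to 621 regions higher, 0 to 0 lower, medians of 0.31 to 0.49, excesses of 0.19 to 0.26, standard deviation differences of -0.142 to -0.120 and 0 to 741 probes. Other limits of length and gap kept each count within 1.5 times. The calls of the 16 named rises were lost under several alternatives, with 0 past the threshold after normexp, scale or quantile normalisation, with each probe length centred, in the authors' values and without control replicate 2 or 3, and 1 with the slide block. With both channels required 5 of the 16 could be tested, and 0 passed. The sign of the 16 differed only in the authors' values, where chr14:43691-45356 was -0.0149 and chr1:49183602-49185120 was -0.0663. Of the 15 named regions that did not pass, 10 changed sign under at least 1 alternative, in 48 values from -0.67 to 0.16, and 13 values passed the threshold under an alternative. Dim immunoprecipitated signal limits these regions, as 45.8% of their probes had Cy5 well above background on no array. Separately, 182 regions had too few usable probes to be tested, a limit set by the input and by spot marks and not by Cy5.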
